A study of Mus musculus with 16 samples.

Results

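The data compared mouse fat that lacks HuR in adipocytes with fat of littermates, in 3 depots at once, and asked which genes differed by genotype after the differences between depots were set aside. All 16 libraries of the series entered a single model, with 1 term for genotype and terms for depot. Epididymal white fat (eWAT) and inguinal white fat (iWAT) each had 3 control (Ctrl) and 3 knockout (HuR-FKO) libraries, and brown fat (BAT) had 2 and 2. Ctrl mice carried the floxed HuR gene (HuRf/f) without Cre, and HuR-FKO mice carried the same floxed gene with AdipoQ-Cre. Both were littermates of 12 weeks, from a floxed line crossed back to C57BL/6 mice for 2 generations. AdipoQ-Cre acts in mature adipocytes, so other cells of the depots keep HuR. The RNA of each library was a pool from 3 mice. The members are the 10592 protein-coding genes, of 21110 in the table, whose mean level exceeded 1 FPKM in at least 1 genotype of every depot. FPKM is the abundance of fragments of a gene, scaled by the length of its transcript and by the size of the library. A log2 change below is HuR-FKO minus Ctrl on log2(FPKM + 1), adjusted for depot, and a gene is said to have risen or fallen where limma's two-sided adjusted p over all 10592 genes was under 0.05. A fold is that log2 change as a ratio of FPKM + 1, so it understates the change of genes with low levels.

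HuR, the product of Elavl1, is an RNA-binding protein found in most cells that binds AU-rich stretches in the 3′ untranslated regions (3′UTRs) of mRNAs and often slows their decay, competing with proteins that speed it. White adipocytes store and release triglyceride, and brown adipocytes burn fatty acids in mitochondria to make heat. Insig1, which holds back the maturation of the SREBP transcription factors that drive sterol and fatty acid synthesis, is the HuR target that the study followed.

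Elavl1 RNA did not separate the genotypes. Its level was 13.6, 13.8 and 12.2 FPKM in the eWAT libraries labelled Ctrl and 13.9, 15.4 and 13.3 FPKM in those labelled HuR-FKO. The iWAT values were 13.2, 15.8 and 12.4 FPKM against 16.5, 15.3 and 13.9 FPKM. In BAT it was 8.34 and 7.36 FPKM against 8.98 and 8.17 FPKM. The groups overlapped in every depot, and the fitted log2 change was 0.12 with a 95% interval from -0.01 to 0.25 (adjusted p = 0.325, limma). The FPKM covers all exons of the gene (chromosome 8, 4284782 to 4325100, mm10) and RNA from all cells of the depot, so it does not test the deleted part alone. Every direction given below therefore compares libraries by their labels. The paper reported the loss of HuR in each depot by real-time PCR and western blot, data that were not examined here. The levels of the paralogs Elavl2, Elavl3 and Elavl4 were too low for the minimum.

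Of the 10592 genes, 168 rose (1.59%) and 217 fell (2.05%), which is 385 genes or 3.63% of those tested. Without adjustment, 765 higher and 1229 lower genes had p under 0.05. Most changes were small. The median log2 change was 0.39 among genes that rose and -0.36 among those that fell, and only 34 of the former and 23 of the latter reached 1.5-fold. Of the genes that rose, 165 were higher on average in HuR-FKO in each of the 3 depots, and 215 of those that fell were lower in each. In 81 of all genes (0.765%) every HuR-FKO library lay above every Ctrl library of its depot in all 3 depots, and in 102 (0.963%) every one lay below. 69 of the genes that rose and 90 of those that fell were among them. The genotype effect was not found to differ between depots for any gene (0 genes at an adjusted p under 0.05 for the interaction, limma, smallest adjusted p = 0.190), while 459 genes had an unadjusted interaction p under 0.05 and 51 of these were among the 385. The genes nearest the threshold were Gpd1 (log2 change 0.49, adjusted p = 0.0496) and Pabpn1 (log2 change -0.21, adjusted p = 0.0496) inside it, and Afg3l2 (log2 change 0.24, adjusted p = 0.05001) and Acss1 (log2 change 0.37, adjusted p = 0.05001) outside it.

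**Figure D1:**
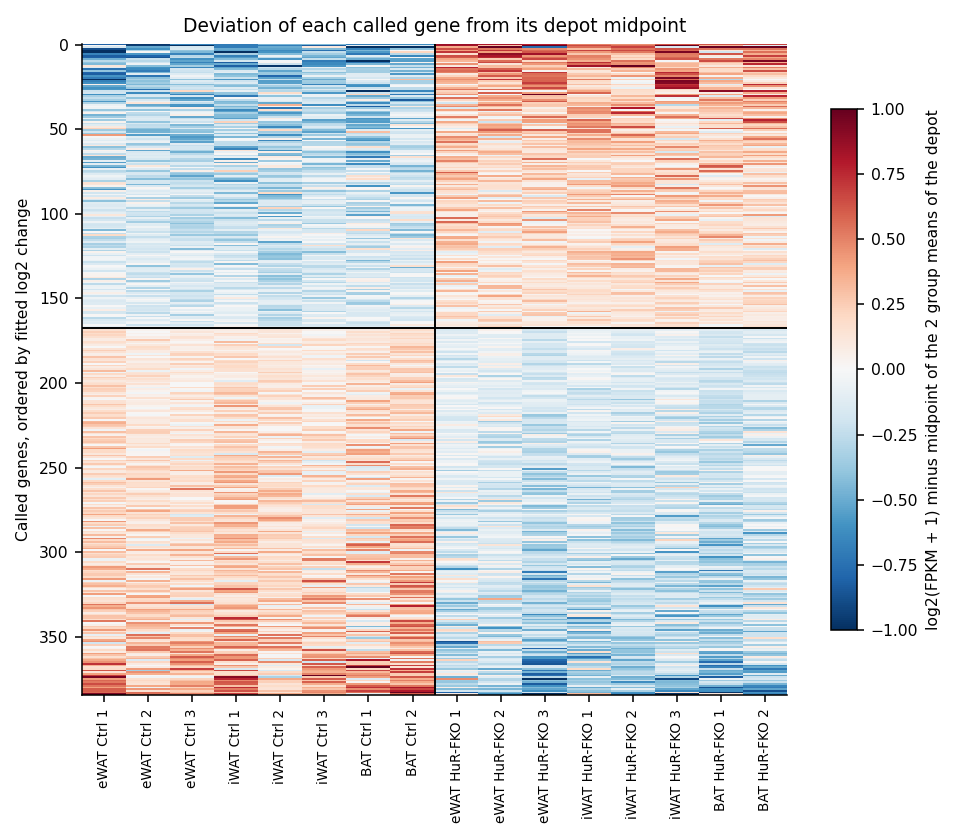
Level of each of the 385 genes that rose or fell (rows, ordered by fitted log2 change, 168 higher above the horizontal line and 217 lower beneath it) in each of the 16 libraries (columns, 8 Ctrl left of the vertical line and 8 HuR-FKO right of it), as log2(FPKM + 1) minus the midpoint of the Ctrl and HuR-FKO means of its depot. The genes were chosen by this contrast, so the split by genotype is a description. In 69 of the upper and 90 of the lower genes no Ctrl and HuR-FKO library of a depot overlapped.

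The count depended on how the libraries are grouped. The same replicate number was used in all depots, and where same-numbered libraries of a genotype were treated as draws from 1 pool of mice (fitted correlation 0.0814), 85 genes rose and 89 fell, all of them among the 385. That fit is called the shared-pool fit below, and calls of named genes that it lost are given with its adjusted p. Under median-ratio scaling the split between higher and lower turned, with 62.5% of calls higher against 43.6% in the fit as given (233 genes rose and 140 fell). Without eWAT 28 rose and 18 fell, without iWAT 15 and 14, and without BAT 97 and 94. In 15 genes the call held in all single-library and single-depot omissions and in the other settings tried, apart from the stricter minimum of 5 FPKM, under which low genes are not tested, and the 1.5-fold requirement. Leaving out any 1 of the 16 libraries kept 70 of the rises and 77 of the falls. Of the 15, those that rose included Stk38, Hist1h4h, Fmo4, Cxcl9 and Sugct, and those that fell included Pnpla3, Dlst, Tnpo2, Mcur1, Tep1 and Txnl4b.

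Stk38, a serine/threonine kinase of the NDR family in Hippo signalling, had the largest rise and the smallest p. Its level was 73.7, 66.4 and 81.5 FPKM in eWAT Ctrl and 237, 228 and 224 FPKM in eWAT HuR-FKO. The iWAT libraries read 75.1, 88.8 and 90.1 FPKM against 174, 169 and 191 FPKM. In BAT it was 42.7 and 44.7 FPKM against 108 and 111 FPKM. Every HuR-FKO library exceeded every Ctrl library of its depot by a wide margin, and the fitted change was 2.53-fold (log2 change 1.34 ± 0.08 SE, adjusted p = 1.24e-07, limma). The difference was largest in eWAT (log2 1.63) and smallest in iWAT (log2 1.07), and the adjusted interaction p was 0.764. Its close paralog Stk38l, chosen after its values were seen, had a log2 change of -0.09 (adjusted p = 0.572). Stk38 was the 1 gene of 19 tested on a list of Hippo kinases and adaptors that rose, and none of that list fell.

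Fmo4, a flavin-containing monooxygenase, rose 1.86-fold at low levels. It was 0.955, 1.34 and 0.792 FPKM in eWAT Ctrl and 2.55, 2.25 and 3.32 FPKM in eWAT HuR-FKO. In iWAT it was 1.18, 0.969 and 1.49 FPKM against 3.02, 2.33 and 3.52 FPKM, and in BAT 1.504 and 1.42 FPKM against 4.05 and 3.92 FPKM. The groups were apart in each depot (log2 change 0.89 ± 0.09 SE, adjusted p = 3.51e-05, limma). Sugct, a mitochondrial transferase of glutarate breakdown that the table lists as 5033411D12Rik, rose 1.99-fold (log2 change 0.996, adjusted p = 0.000185) with no overlap in any depot. Zfp949, a zinc finger gene, rose 2.03-fold (log2 change 1.02, adjusted p = 0.000256), from 3.33 to 6.01 FPKM in eWAT Ctrl to 10.6 to 13.2 FPKM in eWAT HuR-FKO and from 2.31 and 3.49 FPKM to 3.99 and 4.74 FPKM in BAT.

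Other large rises were less even. Clstn3, a gene of the calsyntenin family, rose 2.28-fold (log2 change 1.19 ± 0.21 SE, adjusted p = 0.00593). Its eWAT libraries read 21.7, 10.6 and 7.79 FPKM in Ctrl and 39.3, 26.5 and 49.8 FPKM in HuR-FKO, and those of iWAT 19.7, 19.8 and 17.9 FPKM against 52.1, 48.6 and 66.8 FPKM. In BAT, where its level was highest, the libraries read 114 and 108 FPKM against 152 and 112 FPKM and overlapped. Ptgds, which makes prostaglandin D2, rose 2.22-fold (log2 change 1.15 ± 0.31 SE, adjusted p = 0.0474), with the largest difference in BAT, at 11.7 and 14.3 FPKM in Ctrl against 73.1 and 104 FPKM in HuR-FKO. In eWAT it was 4.20, 3.10 and 4.17 FPKM against 6.53, 12.8 and 2.43 FPKM, so HuR-FKO libraries lay on both sides. The Ptgds call was lost in 21 other settings, the shared-pool fit among them (adjusted p = 0.086), and in iWAT the gene passed the minimum only through HuR-FKO (mean 1.15 FPKM against 0.298 FPKM in Ctrl). Prtn3, proteinase 3 of myeloid granules, rose 2.003-fold (log2 change 1.002, adjusted p = 0.0137), with no overlap in eWAT and iWAT and with overlap in BAT at 0.518 and 1.61 FPKM against 0.965 and 2.30 FPKM. Other myeloid granule cell genes did not go with it. All 7 tested genes on a neutrophil and mast cell list were lower, as were 6261 of all 10592 genes, and none passed the test. The sum of 5 neutrophil markers was lower without overlap in iWAT HuR-FKO (22 to 54.5 FPKM against 59.8 to 133 FPKM in Ctrl) and overlapped in eWAT and BAT.

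**Figure D2:**
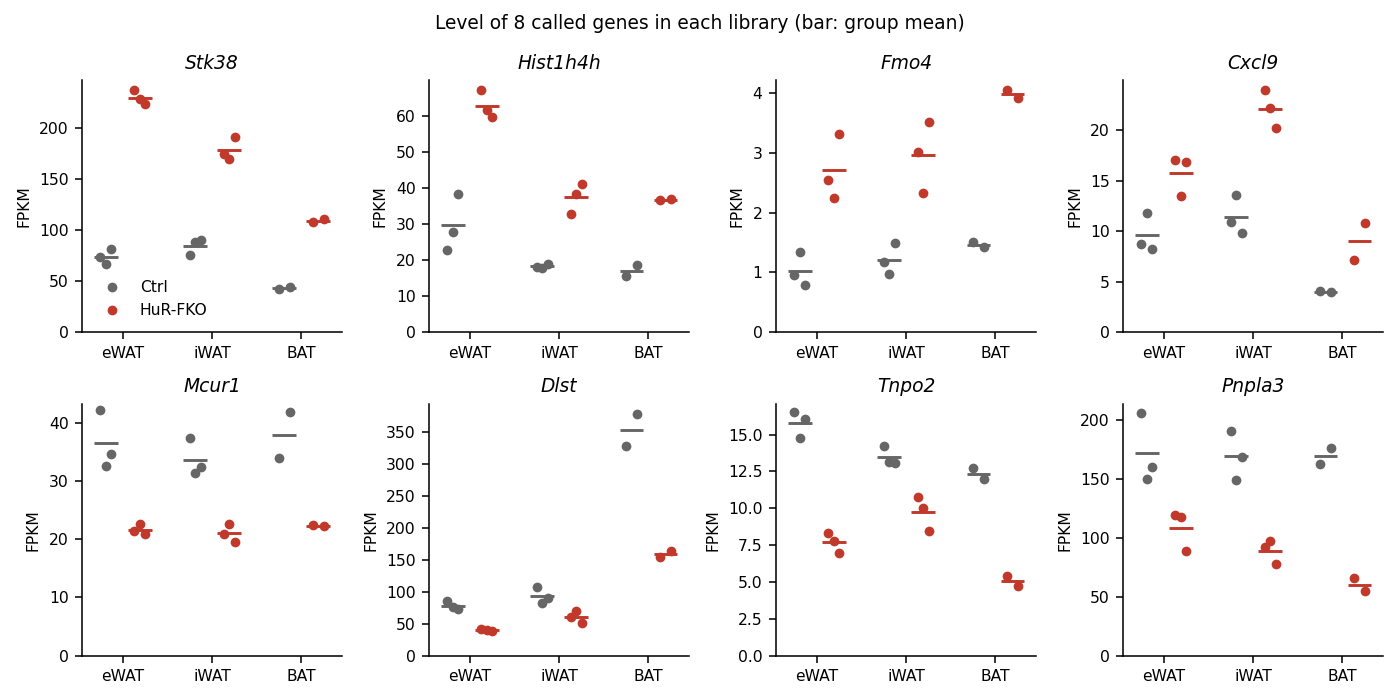
FPKM of 4 genes that rose (upper row) and 4 that fell (lower row) in each library, by depot on the x axis, with grey points for Ctrl, red for HuR-FKO and a bar at each group's mean. HuR-FKO libraries lie above Ctrl in every depot for Stk38 (108 to 237 FPKM against 42.7 to 90.1 FPKM over the depots) and the rest of the upper row, and below Ctrl in every depot for Mcur1 (19.5 to 22.7 FPKM against 31.3 to 42.2 FPKM) and the rest of the lower row.

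The genes that fell with the smallest p were Mcur1, Dlst, Tnpo2, Tep1, Pnpla3 and Txnl4b. Mcur1, a regulator of calcium uptake into mitochondria, was 42.2, 32.6 and 34.6 FPKM in eWAT Ctrl and 21.5, 22.7 and 20.8 FPKM in eWAT HuR-FKO. In iWAT it was 37.3, 31.3 and 32.4 FPKM against 20.9, 22.6 and 19.5 FPKM, and in BAT 33.9 and 41.8 FPKM against 22.4 and 22.3 FPKM. Its level and its fall were alike in all depots (log2 differences -0.72, -0.66 and -0.73), and the fitted log2 change was -0.70 ± 0.07 SE (adjusted p = 2.93e-05, limma).

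Dlst, the succinyltransferase subunit of the alpha-ketoglutarate dehydrogenase complex, fell from 85.6, 76 and 73.2 FPKM to 40.9, 40.6 and 38.8 FPKM in eWAT. In iWAT it was 107, 81.9 and 90 FPKM against 59.7, 69.5 and 51.4 FPKM, and in BAT 328 and 377 FPKM against 155 and 164 FPKM. The HuR-FKO libraries were below Ctrl throughout (log2 change -0.87 ± 0.09 SE, adjusted p = 3.51e-05). Tnpo2, a transportin that carries RNA-binding proteins into the nucleus, had a log2 change of -0.81 ± 0.09 SE (adjusted p = 0.000218). It was 16.5, 14.8 and 16.1 FPKM against 8.32, 7.75 and 6.98 FPKM in eWAT, and 12.7 and 11.98 FPKM against 5.40 and 4.70 FPKM in BAT, while in iWAT it was 14.2, 13.1 and 13.1 FPKM against 10.7, 9.99 and 8.47 FPKM. It was the 1 gene that fell among 23 tested nuclear import receptors, of which none rose.

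Pnpla3, a lipid droplet protein with acylglycerol hydrolase activity that is induced by feeding, had a log2 change of -0.96 ± 0.12 SE (adjusted p = 0.000256). Its libraries read 206, 150 and 160 FPKM against 119, 118 and 88.6 FPKM in eWAT, 190, 149 and 168 FPKM against 91.7, 97.1 and 77.6 FPKM in iWAT, and 162 and 176 FPKM against 65.4 and 54.7 FPKM in BAT. Ctrl levels were alike in the 3 depots, and the HuR-FKO libraries lay below them in each. Hsd11b1, which regenerates active glucocorticoid inside cells, had a log2 change of -0.99 ± 0.15 SE (adjusted p = 0.00186) and no overlap in any depot, at 148 to 180 FPKM against 68.4 to 107 FPKM in eWAT, 198 to 249 FPKM against 116 to 197 FPKM in iWAT, and 148 and 209 FPKM against 50.9 and 66.97 FPKM in BAT. Of 16 genes on a list of glucocorticoid response it was the 1 that fell and none rose. Bcl6, a transcriptional repressor, had the largest fitted fall (log2 change -0.99 ± 0.23 SE, adjusted p = 0.0265) with wide spread, at 23.9, 14.6 and 7.56 FPKM in eWAT HuR-FKO and 19.1 and 10.8 FPKM against 16.8 and 27.1 FPKM in BAT, where the groups overlapped.

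The 12 largest falls also included Snhg11 (log2 change -0.85), Mrps6, a mitochondrial ribosomal protein (-0.74), Svip, an inhibitor of the degradation of misfolded proteins (-0.73), Npr3, the clearance receptor of natriuretic peptides (-0.69), and Smtnl2 (-0.69). Svip and Mrps6 fell without overlap in any depot. Npr3 was the least even, with eWAT HuR-FKO libraries at 101, 59.25 and 36.02 FPKM around the Ctrl values of 97, 80.7 and 84.3 FPKM. The calls of Npr3 and Smtnl2 were lost in the shared-pool fit (adjusted p = 0.0708 and 0.0589), and Snhg11 passed the minimum in BAT only through Ctrl (mean 4.86 FPKM against 0.997 FPKM). Tep1, a vault particle and telomerase component, and Txnl4b, a splicing factor, had smaller falls (log2 change -0.52 and -0.44) with little spread, and the HuR-FKO libraries were below Ctrl in every depot (adjusted p = 0.000218 and 0.00028, limma).

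Insig1 fell by a margin close to the threshold (log2 change -0.39 ± 0.10 SE, adjusted p = 0.0474, limma). It was 108, 74.1 and 74.3 FPKM in eWAT Ctrl and 72.6, 70.75 and 69.99 FPKM in eWAT HuR-FKO. In inguinal fat it was 210, 183 and 137 FPKM against 147, 126 and 126 FPKM, and in BAT 184 and 194 FPKM against 105 and 144 FPKM. The groups overlapped in iWAT alone. Over the other settings the call on the log2 change of Insig1 was lost in 23 of 30, with an adjusted p from 0.0284 to 0.248 (limma), and 0.0861 in the shared-pool fit. Of 26 tested genes on a list of cholesterol synthesis and SREBP control, Insig1 alone fell, none rose, 20 were lower and the median log2 change was -0.08. Among all 10592 genes, 6261 were lower, 2.05% fell and the median log2 change was -0.03. Cebpb, a transcription factor of early adipogenesis (log2 change -0.22, adjusted p = 0.136), and Hmgb1, a chromatin protein (log2 change -0.11, adjusted p = 0.313), did not pass the test.

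Because HuR binds AU-rich letters, the 3′UTRs of the tested genes were searched for ATTTA and for the longer TTATTTATT, on the strand of the mRNA, in the longest annotated 3′UTR of each gene (GENCODE vM21, mm10). A 3′UTR was found for 10529 genes. ATTTA was present in 66.5% of genes that rose, 63.4% of those that fell and 69.6% of those not called, with median 3′UTR lengths of 1104, 1063 and 1150 bases. TTATTTATT, which contains ATTTA, was present in 6.21%, 6.02% and 7.85%. The shares in the genes that moved were therefore no higher than in the rest, and a match is not evidence of binding. The following windows, with the searched letters in capitals, come from Insig1, from Mcur1 (on the study's list of HuR targets, fell) and from Gstt2 (rose, with overlapping copies), and show that both directions hold such letters.
Insig1, chr5:28077798-28077826, plus strand, 1 of 4 ATTTA in a 3′UTR of 1842 bases: attctcgtaaatATTTAttttgtaatttt
Mcur1, chr13:43541528-43541556, minus strand, 128 bases into the 3′UTR: ttcatgcataTTATTTATTtctgtgcaaa
Gstt2, chr10:75831791-75831819, minus strand, 76 bases into the 3′UTR: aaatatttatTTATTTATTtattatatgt

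The study listed 200 HuR targets from immunoprecipitation in eWAT, and 196 were tested here. Of these 6 rose and 9 fell, that is 15 of 196 against 385 of 10592, with a median log2 change of -0.043 against -0.028 over all genes. The paper plots the enrichment of listed genes as the log2 of Ctrl over HuR-FKO. The list may therefore not be independent of the genotype contrast used here. Those that fell included Dlst (log2 change -0.87), Mcur1 (-0.70), Synpo2 (-0.68), an actin-binding protein of muscle, 2610019F03Rik (-0.49), Arhgap24 (-0.46), Ifrd1 (-0.40), Insig1 (-0.39) and Golt1b (-0.29). Those that rose were Alas2 (0.73), the first enzyme of haem synthesis in red cell precursors, Gsta4 (0.71), a glutathione transferase, Ier3ip1 (0.59), Uba7 (0.42), an enzyme of ISG15 conjugation, Pex3 (0.33), needed to form peroxisome membranes, and Slc35a1 (0.27), a sugar nucleotide carrier. In the shared-pool fit 7 of the 15 calls held (adjusted p of the 15 from 9.09e-05 to 0.0861), those of Dlst, Mcur1, Synpo2, Arhgap24, Alas2, Gsta4 and Ier3ip1. In ATTTA content the 9 and the 6 were few, with the letters present in 8 and 3 of them, and their median 3′UTR lengths were 1842 and 469 bases.

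Genes of replication-dependent histone H4 were chosen as a group after the results were seen. Of 13 listed, 5 passed the minimum and rose, but Hist1h4b and Hist1h4c passed it in BAT only through HuR-FKO (means 1.06 and 2.3 FPKM against 0.469 and 0.916 FPKM in Ctrl), so their direction was in part fixed by the filter and the count supports nothing. Over all genes 11 of the 168 that rose and 18 of the 217 that fell passed the minimum of some depot only through the group where they are high. Hist1h4h was 22.7, 27.9 and 38.4 FPKM in eWAT Ctrl and 67.3, 61.7 and 59.7 FPKM in eWAT HuR-FKO. The iWAT libraries gave 18.2, 17.8 and 19 FPKM against 32.8, 38.5 and 41.2 FPKM, and in BAT 15.5 and 18.6 FPKM against 36.7 and 36.9 FPKM. The rise was alike in the 3 depots, 2.07-fold in the fit (log2 change 1.05 ± 0.09 SE, adjusted p = 5.39e-06). Hist1h4c (log2 change 0.97), Hist1h4k (0.90), Hist1h4b (0.76) and Hist1h4i (0.64) were at lower levels, and of them Hist1h4k overlapped between groups in BAT. The H4 genes encode the same protein and are near-identical copies, so how their reads were divided is uncertain. Their mRNAs end in a stem-loop in place of a poly(A) tail, and a search on the mRNA strand for its pattern (GG, any 2 bases, CTTTT, CAG, any 2 bases, CC) found it in 17 of the 10529 3′UTRs. They included 3 of the H4 genes that rose, shown here with the stem-loop in capitals.
Hist1h4h, chr13:23531453-23531478, plus strand: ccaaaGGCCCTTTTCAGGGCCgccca
Hist1h4c, chr13:23698084-23698109, minus strand: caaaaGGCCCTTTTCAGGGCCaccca
Hist1h4b, chr13:23757361-23757386, plus strand: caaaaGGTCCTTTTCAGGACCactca
The other 10 histone genes among the 17 did not pass the test, with log2 changes from -0.34 (Hist2h3c2) to 0.38 (Hist1h1e), and of 22 tested cell cycle genes none rose or fell.

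Of 29 fatty acid oxidation genes tested, 27 were higher and 2 lower, where 4331 of all 10592 genes were higher. 6 rose and none fell, and the median log2 change was 0.25. In the shared-pool fit 3 of the 6 calls were lost, those of Cpt1b, Hadhb and Acot2 (adjusted p = 0.0507, 0.0812 and 0.058). Acadm, the medium-chain acyl-CoA dehydrogenase, rose 1.44-fold (log2 change 0.53 ± 0.10 SE, adjusted p = 0.007), from 184, 198 and 221 FPKM to 372, 391 and 310 FPKM in iWAT and from 757 and 862 FPKM to 1203 and 1248 FPKM in BAT. In eWAT it overlapped, at 188, 208 and 197 FPKM against 230, 203 and 242 FPKM. Cpt1b, a carnitine palmitoyltransferase for the entry of long-chain fatty acids into mitochondria, rose 1.76-fold (log2 change 0.82, adjusted p = 0.0239), most in iWAT (13.9 to 18.6 FPKM against 35.9 to 66.6 FPKM). Decr1, which handles unsaturated fatty acids, rose less (log2 change 0.32, adjusted p = 0.0137) with no overlap in any depot. Etfa (0.37), which takes electrons from these dehydrogenases, Hadhb (0.35), a trifunctional protein subunit, and Acot2 (0.32), a mitochondrial thioesterase, also rose. Without iWAT the median log2 change of fatty acid oxidation was 0.0912.

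Counts for the mitochondrial matrix and respiratory chain stand beside 1.59% of all genes that rose and 2.05% that fell. Of 26 tricarboxylic acid cycle and ketoacid dehydrogenase genes, 21 were higher, 3 rose and 1 fell, with a median log2 change of 0.17. Bckdhb, of the branched-chain ketoacid dehydrogenase, rose 1.41-fold without overlap (log2 change 0.49 ± 0.06 SE, adjusted p = 0.000256), at 76.1, 90.9 and 92.3 FPKM against 107, 115 and 123 FPKM in eWAT and 51.7, 55.2 and 60.3 FPKM against 80.3, 83.2 and 90.4 FPKM in iWAT. In BAT it was 76.7 and 78.9 FPKM against 108 and 107 FPKM. Sucla2 and Suclg1, subunits of succinyl-CoA synthetase, which acts on the product of the complex that holds Dlst, rose (log2 change 0.53 and 0.54, adjusted p = 0.0247 and 0.0321), while Dlst was the 1 that fell. Sucla2 and Suclg1 were lost in the shared-pool fit (adjusted p = 0.0516 and 0.0628). Of 72 nuclear genes of oxidative phosphorylation, 62 were higher but 2 rose, Uqcrc1 (log2 change 0.38) and Uqcrfs1 (0.32), both of complex III, and the list's median log2 change of 0.08 turned to -0.02 without iWAT. Uqcrc1 was lost in the shared-pool fit (adjusted p = 0.0721). Among 76 mitochondrial ribosomal proteins, Mrpl1, Mrpl45 and Mrps5 rose (log2 change 0.27 to 0.31) and Mrps6 fell, and Mrpl1 and Mrps5 were lost in the shared-pool fit (adjusted p = 0.0637 and 0.0621).

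Of 13 protein-coding genes of the mitochondrial genome, 9 were tested, since 4 are listed at 0 in all BAT libraries. All 9 were higher and 6 rose, with a median log2 change of 0.40, where 4331 of all 10592 genes were higher and 1.59% rose. In the shared-pool fit mt-Nd3, mt-Nd5 and mt-Cytb lost their calls (adjusted p = 0.0652, 0.0558 and 0.0885), and that of mt-Cytb was lost in 23 settings in all. mt-Nd2, a complex I subunit, was 2956, 2895 and 2451 FPKM in eWAT Ctrl and 4098, 3260 and 4038 FPKM in eWAT HuR-FKO. Its iWAT values were 4384, 4958 and 5392 FPKM against 6161, 7121 and 6507 FPKM, and in BAT the lower HuR-FKO library exceeded the higher Ctrl library as well. The groups did not overlap (log2 change 0.41 ± 0.09 SE, adjusted p = 0.021). mt-Nd5 (log2 change 0.49), mt-Nd6 (0.45), mt-Nd1 (0.40), mt-Nd3 (0.40) and mt-Cytb (0.35) rose as well, and mt-Co2 (0.36, adjusted p = 0.0609), mt-Nd4 (0.34, adjusted p = 0.0694) and mt-Nd4l (0.39, adjusted p = 0.206) did not pass the test. Together the 9 took 5.68 to 6.39% of protein-coding FPKM in eWAT Ctrl and 7 to 8.17% in eWAT HuR-FKO, 8.4 to 10.2% and 11.1 to 12.7% in iWAT, and 37.7 to 39.2% and 43.7 to 44.5% in BAT. The protein-coding sum was itself not fixed, at 606966 to 612188 FPKM in iWAT Ctrl and 644356 to 651061 FPKM in iWAT HuR-FKO. In BAT the sum was 676398 and 631353 FPKM in Ctrl and 674546 and 676811 FPKM in HuR-FKO, which overlapped. Whether the larger mitochondrial share left less for the rest was not tested. With libraries scaled on the sum without the mitochondrial genes, 170 genes rose and 152 fell, and 158 of the rises and 150 of the falls were among the 385.

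**Figure D3:**
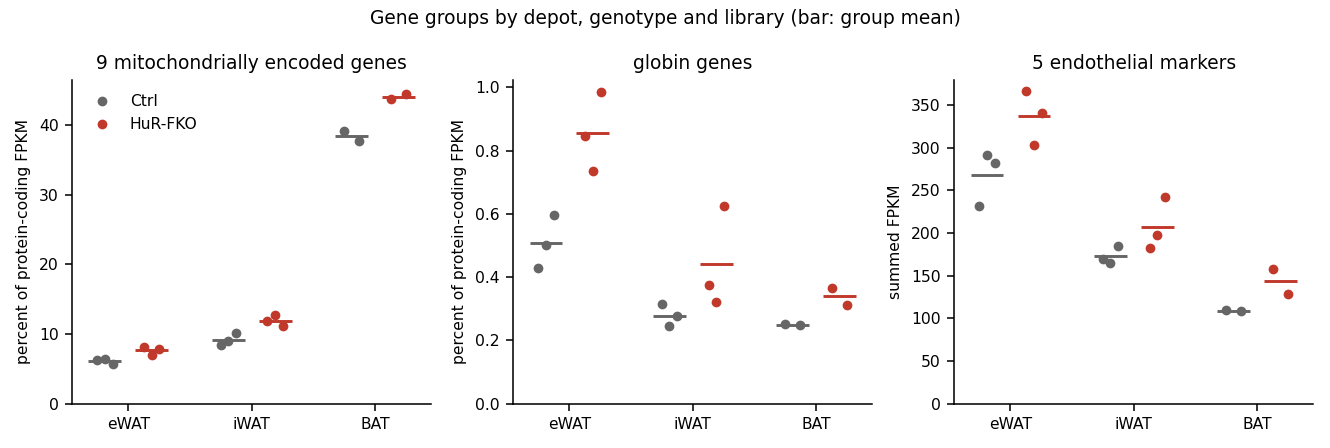
Percent of protein-coding FPKM taken by 9 mitochondrially encoded genes (left) and by globin genes (middle), and summed FPKM of the endothelial markers Pecam1, Cdh5, Kdr, Tek and Cldn5 (right), in each library by depot, with grey points for Ctrl, red for HuR-FKO and a bar at the group mean. The mitochondrial and globin shares are higher in every HuR-FKO library than in every Ctrl library of the same depot (globin 0.43 to 0.595% against 0.734 to 0.985% in eWAT), and the endothelial sums overlap in iWAT (164 to 185 against 182 to 242).

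The thermogenic list, of genes that mark brown and beige adipocytes, had 13 of 28 genes above the minimum in all depots. All 13 were higher and 1 rose, Kcnk3, a potassium channel (log2 change 0.35, adjusted p = 0.0408), whose call was lost in 17 settings, the shared-pool fit among them (adjusted p = 0.0743). The list's median log2 change was 0.26, and its range ran to 0.81. Over all 10592 genes, 4331 were higher and 1.59% rose. The summed level of 5 brown adipocyte markers (Cox7a1, Cidea, Ucp1, Elovl3 and Ppargc1a) was higher without overlap in eWAT (11.6 to 17.4 FPKM against 23.3 to 33.2 FPKM) and iWAT (198 to 309 FPKM against 463 to 903 FPKM) and overlapped in BAT (3922 to 5331 FPKM against 4289 to 4783 FPKM). Taken singly, only Cidea was apart in eWAT, where Ucp1 and Elovl3 were below 1 FPKM. In iWAT all but Ppargc1a were apart. In BAT Cidea was lower without overlap, at 1820 and 1570 FPKM against 1330 and 1180 FPKM, and the others overlapped. Uncoupling protein Ucp1 itself did not reach the minimum in every depot.

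Adipocyte genes split. Of 40 tested, 26 were higher and 14 lower, 2 rose and 4 fell, and the median log2 change was 0.05. Over all tested genes 1.59% rose and 2.05% fell. In the shared-pool fit 2 of these 6 calls held, Rbp4 and Aqp7, and Gpd1, Scd1, Retn and Npr3 were lost (adjusted p = 0.0851, 0.0573, 0.0948 and 0.0708), Gpd1 in 24 settings in all, Retn in 22 and Npr3 in 21. Gpd1, which makes glycerol 3-phosphate for triglyceride (log2 change 0.49, adjusted p = 0.0496), and Aqp7, the glycerol channel (0.46, adjusted p = 0.0217), rose. Rbp4, the retinol carrier (log2 change -0.63, adjusted p = 0.0184), Scd1, the stearoyl-CoA desaturase (-0.49, adjusted p = 0.029), Retn, the adipokine resistin (-0.46, adjusted p = 0.0492), and Npr3 fell. Rbp4 was 120 and 120 FPKM in BAT Ctrl and 43.4 and 48.8 FPKM in BAT HuR-FKO, and its differences in eWAT and iWAT were smaller (log2 -0.42 and -0.35). Adipoq, the adiponectin gene whose promoter drives Cre here, had a log2 change of 0.02 (adjusted p = 0.940). The summed level of 5 adipocyte markers (Fabp4, Adipoq, Cidec, Lipe and Plin1) ran from 13686 to 33660 FPKM over all libraries. In BAT the sum was 14227 to 14636 FPKM in Ctrl and 13686 to 14026 FPKM in HuR-FKO. Most of it was Fabp4, at 13100 and 12300 FPKM against 12400 and 11900 FPKM. Taken singly, each of the 5 markers overlapped in BAT, so the sum does not show that they were lower there.

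Of 26 genes for the synthesis of fatty acids and triglyceride, 13 were higher and 13 lower, none rose, and 3 fell: Pnpla3, Scd1 (lost in the shared-pool fit, as above) and Fads3, a sphingolipid desaturase (log2 change -0.44, adjusted p = 0.00871). Fads3 was below Ctrl in every HuR-FKO library, at 178, 183 and 188 FPKM against 156, 150 and 128 FPKM in eWAT. In the glutathione and antioxidant list of 39, the transferases Gstt2 (log2 change 0.72, adjusted p = 0.00186) and Gsta4 (0.71, adjusted p = 0.00595) rose and glutathione reductase, Gsr (-0.35, adjusted p = 0.0133), and Gpx8 (-0.36, adjusted p = 0.0363) fell, the last of them lost in the shared-pool fit (adjusted p = 0.0643). Gstt2 rose by nearly the same amount in each depot (log2 0.72, 0.73 and 0.69), and Gsta4 by less in BAT (log2 0.91, 0.84 and 0.23). The counts of both lists stand beside 1.59% of all genes that rose and 2.05% that fell.

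Of 48 interferon-stimulated genes tested, 41 were higher and 7 lower, 7 rose and none fell, with a median log2 change of 0.21. Of all 10592 genes, 4331 were higher, 1.59% rose and 2.05% fell. In the shared-pool fit 3 of the 7 calls held, Cxcl9, Iigp1 and Gbp2, and Gbp6, Irgm2, Tgtp1 and Psmb10 were lost (adjusted p = 0.0588, 0.0554, 0.0597 and 0.0643). Cxcl9, a chemokine induced by interferon gamma that attracts T cells, was 8.75, 11.8 and 8.24 FPKM in eWAT Ctrl and 17.03, 13.5 and 16.8 FPKM in eWAT HuR-FKO. The iWAT libraries read 10.9, 13.5 and 9.85 FPKM against 23.9, 22.2 and 20.2 FPKM, and in BAT 4.11 and 3.94 FPKM against 7.15 and 10.9 FPKM. The groups did not overlap in any depot, and the fitted change was 1.78-fold (log2 change 0.83 ± 0.10 SE, adjusted p = 0.000256). Iigp1, an immunity-related GTPase, rose 1.85-fold (log2 change 0.89, adjusted p = 0.00369), most in BAT, at 3.93 and 5.97 FPKM against 15.01 and 18.6 FPKM. Tgtp1 (log2 change 0.57), Gbp6 (0.48), Irgm2 (0.45), Gbp2 (0.43) and Psmb10 (0.27), an immunoproteasome subunit, also rose, and Tgtp1 and Gbp6 have near-identical relatives that can share reads. Ubd, a ubiquitin-like protein induced by interferon gamma that is not on the list, rose 1.79-fold (log2 change 0.84, adjusted p = 0.00369), but passed the minimum in BAT only through HuR-FKO (mean 1.07 FPKM against 0.34 FPKM in Ctrl).

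RefSeq promoters (GRCm38.p6, 250 bases before to 50 after the start) were searched on both strands for GAAA, any 2 bases and GAAA again, the core of interferon-stimulated response elements, and were found for 5 of the 7 interferon genes that rose. The letters are in 3 of these 5, in 45% of promoters of the tested list and in 3.44% of all 32851 promoters. They were in 3.42% of promoters of genes that rose, 2.12% of those that fell and 2.91% of those of tested genes. A second search, for TTC, any 3 bases and GAA, the core that STAT factors bind, found a match in 9.59% and 10.2% of promoters of genes that rose and fell, 6.64% of those of tested genes and 8.3% of all promoters, differences that were not tested. The 3 promoter stretches are shown with the match in capitals, read along the gene.
Gbp2, chr3:142620584-142620633, plus strand, match 59 bases before the start and on the reverse strand: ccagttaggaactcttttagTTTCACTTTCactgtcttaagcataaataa
Tgtp1, chr11:48992294-48992343, minus strand, match 77 bases before the start: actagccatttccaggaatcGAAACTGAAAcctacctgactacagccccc
Irgm2, chr11:58214893-58214942, plus strand, match 64 bases before the start: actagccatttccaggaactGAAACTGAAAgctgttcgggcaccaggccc

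Markers of other cells moved with some of these lists, and in whole fat a change in the number of cells of a type and in RNA per cell cannot be told apart. The counts of these cell lists stand beside 4331 of all 10592 genes that were higher and 1.59% that rose. Of 6 tested red cell genes all were higher and 5 rose: Alas2 and the globins Hba-a1, Hba-a2, Hbb-b1 and Hbb-b2, near-identical in pairs, by 1.57-fold to 1.65-fold, with no overlap in any depot. Hba-a1 was 574, 690 and 840 FPKM in eWAT Ctrl and 1190, 1101 and 1382 FPKM in eWAT HuR-FKO, and its adjusted p was 0.007. Of 25 endothelial genes 21 were higher and 2 rose, Cdh5, the cadherin of endothelial junctions (log2 change 0.31, adjusted p = 0.0239), and Tie1, a receptor of the vessel wall (0.29, adjusted p = 0.0198). Nkg7 of cytotoxic lymphocytes rose (log2 change 0.50, adjusted p = 0.0395), but it passed the minimum in BAT only through HuR-FKO (mean 1.02 FPKM against 0.725 FPKM) and was lost in 15 settings, the shared-pool fit among them (adjusted p = 0.0743). The sum of 5 markers of those cells (Nkg7, Gzma, Klrb1c, Ncr1 and Prf1) was higher without overlap in each depot (3.97 to 5.31 FPKM against 7.9 to 10.9 FPKM in eWAT, 24.5 to 34.6 FPKM against 35.7 to 48.2 FPKM in iWAT, 1.14 to 1.48 FPKM against 2.08 to 2.4 FPKM in BAT). Taken singly, only Gzma was apart in every depot. Nkg7 overlapped in iWAT, Prf1 in all 3 depots, Klrb1c in eWAT and BAT and Ncr1 in BAT. In BAT no marker but Nkg7 exceeded 1 FPKM in any library. The sum of 5 macrophage markers overlapped in every depot, and 1 of 23 macrophage genes rose, Mpeg1 (log2 change 0.52, adjusted p = 0.0347), which was lost in the shared-pool fit (adjusted p = 0.0641). The part of blood, endothelial and lymphocyte RNA in the rises of the interferon list was not tested.

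Of 46 extracellular matrix genes tested, 40 were lower and 6 higher, where 6261 of all 10592 genes were lower, and 3 fell, where 2.05% of all genes fell. None rose, and the median log2 change was -0.26. Col6a2 (log2 change -0.40 ± 0.10 SE, adjusted p = 0.0346) and Col6a1 (-0.37, adjusted p = 0.0426), chains of collagen VI around adipocytes, and Lamc1 (-0.31, adjusted p = 0.0395), a basement membrane laminin, fell. All 3 calls were lost in the shared-pool fit (adjusted p = 0.0836 for Col6a1, 0.0686 for Col6a2 and 0.0743 for Lamc1) and when libraries were scaled without the mitochondrial genes. Col6a2 was 91.4, 82.3 and 75.5 FPKM against 75.7, 65.5 and 55.7 FPKM in eWAT and overlapped there by a narrow margin. In iWAT, where it was 125, 102 and 106 FPKM against 82.2, 78.7 and 91.5 FPKM, the groups were apart, and in BAT they overlapped. The sum of 5 fibroblast and progenitor markers overlapped in every depot.

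Of 76 tested genes of the cytosolic ribosome 74 were lower and 2 higher, none rose or fell, and the median log2 change was -0.14, in a set where 6261 of all 10592 genes were lower. Skeletal muscle genes had the lowest median of the lists, -0.68 over 12 genes with 11 lower, and none passed the test. Muscle RNA varied within groups, with the sum of 5 muscle markers from 271 to 2036 FPKM in iWAT Ctrl and 10.2 to 450 FPKM in iWAT HuR-FKO, which overlapped. In BAT the sum was 1605 to 2902 FPKM for Ctrl against 945 to 954.5 FPKM for HuR-FKO, without overlap, and its part in the BAT differences was not tested. In the chaperone list of 33 genes Cryab, a small heat shock protein (log2 change -0.61), and Pdia4, which forms disulfides in the endoplasmic reticulum (-0.37), fell, and both were lost in the shared-pool fit (adjusted p = 0.073 and 0.0776) and under median-ratio scaling. Of 21 circadian clock genes, the clock output factor Tef (log2 change -0.25, adjusted p = 0.0243) and the period gene Per3 (-0.24, adjusted p = 0.0431) fell and none rose, and of 24 immediate early genes Btg2, which restrains proliferation, rose (log2 change 0.42, adjusted p = 0.0363) and Fosl2, an AP-1 subunit, fell (-0.33, adjusted p = 0.0279). Per3, Btg2 and Fosl2 were lost in the shared-pool fit (adjusted p = 0.0814, 0.067 and 0.0578). Beside these lists, 1.59% of all tested genes rose and 2.05% fell. Cxcl9, counted with the interferon list, and Pnpla3, counted with fatty acid and triglyceride synthesis, are not on the lists that follow. None of 25 tested AU-rich element binding proteins, 23 cytokines, chemokines and receptors, 15 lipolysis and lipid droplet genes, or 26 genes of the ATF4 and amino acid stress response rose or fell.

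**Figure D4:**
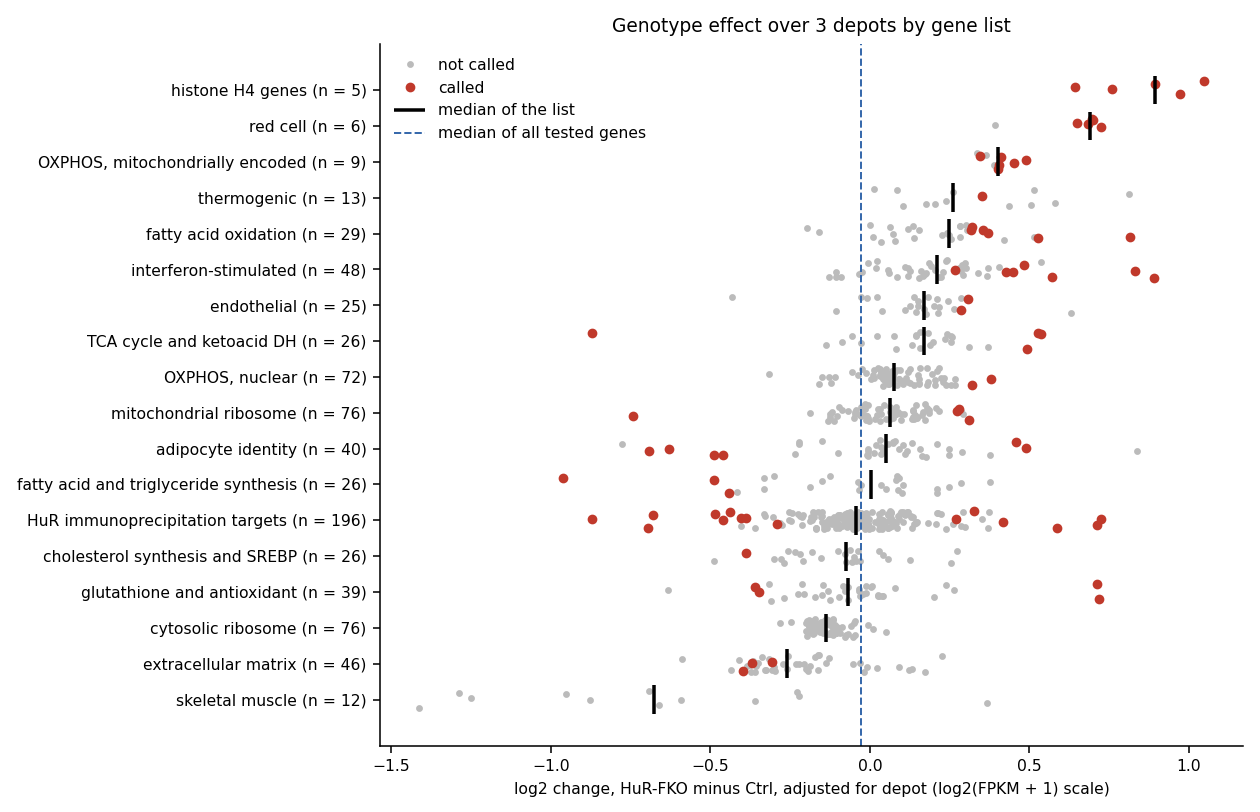
Fitted log2 change of each tested gene (points, red where the gene rose or fell) in 18 gene lists, with a black bar at each list's median and a dashed line at the median of all tested genes (-0.03). Medians run from 0.90 for the histone H4 genes to -0.68 for skeletal muscle, in which no gene passed the test. The lists were written with earlier results of these data known. The histone H4 list was chosen after the results were seen, and Hist1h4b and Hist1h4c passed the minimum in BAT only through HuR-FKO, so its median supports nothing.

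The positions of the 385 genes were set beside those of all tested genes. Of the autosomes and chromosome X, the share that rose or fell ran from 2.29% on chromosome X to 5.04% on chromosome 19, and on the mitochondrial genome it was 66.7% (6 of 9). Within 5 Mb of Elavl1, 29 genes were tested and 1 passed the test, Retn, which fell. Within 1 Mb of Adipoq on chromosome 16, 9 were tested, 2 rose and 1 fell. The 2 that rose, Eif4a2 and Rfc4, are neighbours whose loci overlap, 39.1 and 32.6 kb from Adipoq. Eif4a2, an RNA helicase of translation initiation, was 156, 211 and 211 FPKM in eWAT Ctrl and 275, 261 and 292 FPKM in eWAT HuR-FKO, 190, 269 and 237 FPKM against 318, 316 and 310 FPKM in iWAT, and 160 and 160 FPKM against 188 and 191 FPKM in BAT. The groups did not overlap (log2 change 0.43 ± 0.08 SE, adjusted p = 0.00871). Rfc4, a clamp loader subunit of DNA replication, rose 1.54-fold (log2 change 0.63 ± 0.12 SE, adjusted p = 0.00871), from 4.18, 2.82 and 3.35 FPKM to 6.16, 7.96 and 6.89 FPKM in eWAT, and overlapped in iWAT. AdipoQ-Cre was carried by HuR-FKO mice alone, so the transgene and the loss of HuR cannot be told apart in this design. Bcl6, which fell, starts 818.5 kb from Adipoq.

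**Figure D5:**
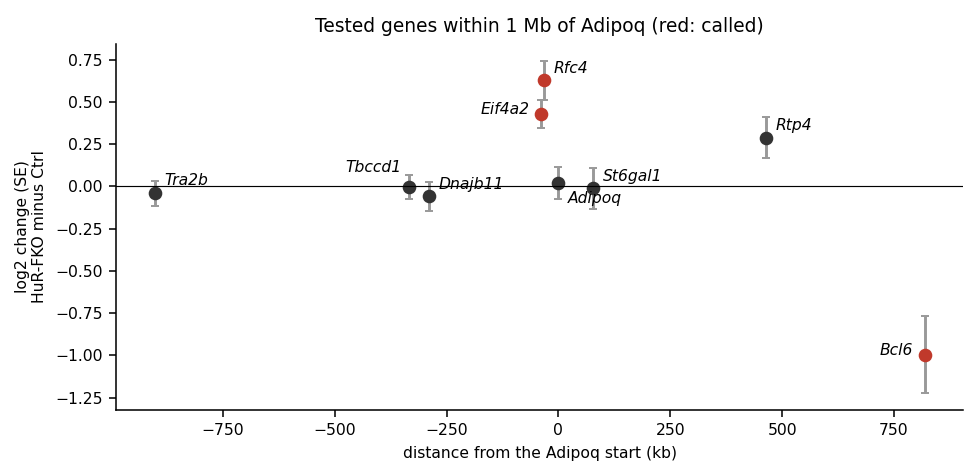
Fitted log2 change with its SE for the 9 tested genes within 1 Mb of Adipoq, against the distance of their starts from that of Adipoq in kb, red where a gene rose or fell. Eif4a2 (0.43) and Rfc4 (0.63) stand above the nearby genes, Adipoq itself is at 0.02, and Bcl6 (-0.99) lies at 818.5 kb.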

How the data were processed

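Per the labels, reads of strand-specific libraries were mapped with TopHat2 2.0.11 (build mm10), and the FPKM that the authors deposited, 1 value per gene and library, came from Cufflinks 2.1.1. The annotation release is not given in the sources used here. Gene types came from GENCODE vM21. FPKM holds no counts, and only 52.6 to 78.9% of the low values tested per library fell on whole-read steps, so depth was taken as unknown and no counting interval is given. Between 10442 and 12531 protein-coding genes exceeded 1 FPKM per library.

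log2(FPKM + 1) was fitted in limma 3.58.1 (R 4.3.3, moderated with an intensity trend) on depot and genotype over 16 libraries, two-sided, with Benjamini-Hochberg adjustment and a threshold of 0.05. The interaction was an F test. Whether libraries are separate beyond their pools of 3 mice is not stated, so p-values measure the spread between libraries. Mice may be shared between depots. The fit was tested on simulated data.

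Members and lists were chosen with earlier results of these data known. Named genes were Elavl1 and paralogs, the 12 largest changes and 6 smallest p in each direction, the 2 smallest p in each list and direction, Insig1, Hmgb1, Cebpb, and genes that passed the test near Elavl1 or Adipoq. Other genes were named after their values were seen, among them further list members that passed the test, histone genes, Stk38l and genes at the threshold. Alternatives changed the pseudocount, FPKM minimum, scaling, gene set, block, depot weights, variance model and the libraries used. Some genes that the rule names are not reported here.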

Additional observations from a re-analysis of the deposited data

How the results depend on the processing

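The counts of 168 genes that rose and 217 that fell were recomputed under the alternatives. With no FPKM minimum they were 102 and 118 (18348 genes tested). With same-numbered libraries of a genotype as 1 pool they were 85 and 89. With a fitted change of at least 1.5-fold they were 34 and 23. Median-ratio scaling gave 140 that fell. Without eWAT they were 28 and 18, without iWAT 15 and 14, and without BAT 97 and 94, with fewer libraries in each. Leaving out each library in turn gave 84 to 168 that rose and 92 to 262 that fell. Omissions that moved a count by over 1.5 times were those of eWAT Ctrl 1 (142 fell), eWAT Ctrl 3 (102 rose, 139 fell), eWAT HuR-FKO 3 (114 fell), iWAT Ctrl 1 (99 and 115), iWAT Ctrl 2 (143 fell), iWAT HuR-FKO 1 (106 and 139), iWAT HuR-FKO 2 (84 and 92), BAT Ctrl 2 (109 fell), BAT HuR-FKO 1 (97 and 93) and BAT HuR-FKO 2 (110 and 133). In all single-library omissions 70 of the rises and 77 of the falls held. Genes whose genotype effect differed between depots numbered 0 in the fit as given, 13 with no minimum, 1 under median-ratio scaling, 2 over all annotated genes, 1 without iWAT and 0 to 2 with a library left out. With the replicate block (depot and number) 213 rose and 290 fell, 146 and 180 of them among the 385, and same-numbered Ctrl and HuR-FKO libraries correlated at -0.144 to 0.407 after group means were removed, so the numbers were not taken as pairs. The log2 change of Adipoq, which did not pass the test, was -0.064 without eWAT and from -0.0402 to 0.065 with a library left out. The cause of these changes was not tested. Depth is unknown, and 4 mitochondrial genes listed at 0 in BAT could not be assessed.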

Other observations

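Genes that are not protein-coding were outside the fit above. In the fit over all annotated genes 11730 were tested, 1138 of them not protein-coding, of which 17 passed limma's threshold as higher and 13 as lower. These genes were chosen after their values were seen. Ighm, the constant region of the immunoglobulin M heavy chain, rose (log2 change 0.84, adjusted p = 0.0112), as did mt-Rnr2, the large ribosomal RNA of mitochondria (log2 change 0.59, adjusted p = 0.0499). Ighm overlapped in iWAT, at 178, 346 and 249 FPKM in Ctrl against 322, 383 and 396 FPKM in HuR-FKO. The sum of 5 B cell markers overlapped in every depot. In eWAT and iWAT mt-Rnr2 overlapped too. The non-coding transcripts C330006A16Rik (log2 change -0.49, adjusted p = 0.000448) and A430018G15Rik (-1.06, adjusted p = 0.000903) fell. A430018G15Rik was below 1 FPKM in every HuR-FKO library and passed the minimum in each depot only through Ctrl. Its direction was therefore in part fixed by the filter. The antisense RNA A730085K08Rik had the smallest p (log2 change -0.85, adjusted p = 0.000154).

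Of the 385 genes, several lie beside each other. Acad10 and Acad12, acyl-CoA dehydrogenases 22.7 kb apart on chromosome 5, rose together (log2 change 0.58 and 0.53), and Abhd14a, Abhd14b and Pcbp4 fell together on chromosome 9 (-0.42, -0.30 and -0.37), though the calls of Abhd14a and Abhd14b were lost where same-numbered libraries were treated as 1 pool (adjusted p = 0.0587 and 0.0805). Syncrip, an RNA-binding protein, fell (-0.40) 98.3 kb from Zfp949, which rose (1.02). Overlapping or adjacent genes can share fragments, and this was not tested.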
